A study of Mus musculus with 8 samples.

Results

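The genes of MHC class I antigen presentation followed here are 10 listed genes: the heavy chains H2-K1 and H2-D1, their light chain B2m, the peptide transporter subunits Tap1 and Tap2, the loading factor Tapbp (tapasin), the immunoproteasome subunits Psmb8, Psmb9 and Psmb10, and Nlrc5, a transactivator of class I genes. They were chosen by name from the pathway, not by their values, and each gene was read from the probe set with the highest mean over the arrays. Of the 10 genes, 9 had a probe set of their own symbol, out of 29915 genes measured in the series. The only probe set that names Nlrc5 also names the microRNA gene Mir7072, so its values are given for both genes together and not counted among the 9. The H2-D1 probe set carries 2 Entrez gene identifiers, and heavy chain genes are alike in sequence, so that its signal may include more than 1 of them.

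Class I molecules display peptides from the inside of a cell on its surface, where cytotoxic T cells read them. The proteasome cuts proteins into peptides, and the immunosubunits beta5i (Psmb8), beta1i (Psmb9) and beta2i (Psmb10) replace the constitutive catalytic subunits and alter the cutting preference. The Tap1-Tap2 transporter carries the peptides into the endoplasmic reticulum, where tapasin helps to load them onto heavy chains paired with beta2-microglobulin. Interferons raise most of these genes, in part through Nlrc5, which acts at a set of conserved promoter boxes.

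RNA of long-term haematopoietic stem cells (LT-HSC) from mouse bone marrow, sorted as Lin- cKit+ Sca+ Flk2- CD48- CD150+ cells, was measured on 8 Affymetrix whole-transcript arrays. Wild-type (WT) mice and CD169DTR/+ mice (CD169-DTR), in which diphtheria toxin depletes CD169+ macrophages, all received the toxin, so that no group was without it. They were sham-irradiated (non-irradiated) or received 2 Gy of total body irradiation 72 h after the toxin, and the cells were taken 5 days after that. Each combination of genotype and irradiation had 2 arrays, from distinct experiments per the design text. The labels used here do not give the age or sex of the mice or whether animals were pooled. With 2 arrays per group, p-values measure spread within this series only. They combine a gene's own spread between arrays with that of all probe sets tested.

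Array medians ran from 4.86 to 5.03 log2. Of 10 measured LT-HSC gate and identity genes, 5 were above the 75th percentile of every array (Kit, Slamf1, Cd48, Hlf and Tek). Kit is the stem cell factor receptor of the sorting gate, and Cd48 encodes a protein that the gate excludes. Procr and Hoxb5 were above that percentile on 0 arrays. Of 12 measured markers of monocytes, macrophages and dendritic cells, 5 were below the median of all 8 arrays (Siglec1, the gene of CD169, and Csf1r, Adgre1, Mertk and Itgax), and 4 were above the 75th percentile of all 8 (Lyz2, Ly6c2, H2-Ab1 and H2-Eb1). Of 13 markers of T, NK and B cells, 7 were below every median (Cd3e, Cd3d, Cd8a, Cd4, Ncr1, Ms4a1 and Ebf1) and 2 above every 75th percentile (Nkg7 and Cd79b). Of 12 neutrophil and granulocyte-monocyte progenitor markers, 5 were above every 75th percentile (Mpo, Elane, Ctsg, Prtn3 and Ms4a3). So were 5 of 9 megakaryocyte markers (Pf4, Itga2b, Gp5, Gp9 and Treml1) and 2 of 8 erythroid markers (Car1 and Car2). Relative to each gene's mean over the arrays, the mean of the 12 neutrophil and granulocyte-monocyte progenitor markers was -1.45 and -0.59 log2 in WT non-irradiated, 0.50 and 1.26 in WT 2 Gy, -0.21 and 0.50 in CD169-DTR non-irradiated and 0.35 and -0.36 in CD169-DTR 2 Gy. The mean of the 8 measured erythroid markers was highest in CD169-DTR non-irradiated replicate 2 (1.49), and that of the 9 megakaryocyte markers in WT 2 Gy replicate 1 (1.01). What these lists contribute to the values of the class I genes was not tested, and in bulk RNA fewer cells of a type and less RNA per cell cannot be told apart.

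Class I promoters are known for a set of shared boxes, and the sequences before the start sites show which of them these genes carry. RefSeq (build GRCm38.p6) gave a window of 250 bases before to 50 bases after the transcript start for 8 of the 10 genes. Each window was searched on both strands for AANNGAAA (core of interferon regulatory factor sites), TTCNNNGAA (the interferon-gamma activated GAS element), the NF-kB consensus, TGACG (the CRE core found in the X2 box) and CCAAT (the Y box). No match of 1 motif overlapped a match of another motif. The 4 stretches below hold the bases before the start, 5′ to 3′ on the strand of the gene, with matches in capitals. H2-K1 lies at chr17:34000348-34000597 (minus strand), H2-D1 at chr17:35262844-35263093 (plus), B2m at chr2:122147437-122147686 (plus) and Tap1 at chr17:34187306-34187555 (plus). They are shown because both heavy chains and the light chain carry the same 4 kinds of box, of which the transporter gene has only 2.
H2-K1: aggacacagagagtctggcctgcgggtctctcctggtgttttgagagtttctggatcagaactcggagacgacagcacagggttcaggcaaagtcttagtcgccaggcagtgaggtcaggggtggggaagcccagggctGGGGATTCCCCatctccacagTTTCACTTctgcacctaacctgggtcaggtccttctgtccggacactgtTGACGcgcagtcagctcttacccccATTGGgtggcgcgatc
H2-D1: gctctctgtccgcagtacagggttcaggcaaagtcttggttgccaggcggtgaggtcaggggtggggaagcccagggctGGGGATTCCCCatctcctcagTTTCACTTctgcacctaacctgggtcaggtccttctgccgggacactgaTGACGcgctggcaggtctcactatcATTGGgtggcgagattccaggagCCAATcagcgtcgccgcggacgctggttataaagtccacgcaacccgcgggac
B2m: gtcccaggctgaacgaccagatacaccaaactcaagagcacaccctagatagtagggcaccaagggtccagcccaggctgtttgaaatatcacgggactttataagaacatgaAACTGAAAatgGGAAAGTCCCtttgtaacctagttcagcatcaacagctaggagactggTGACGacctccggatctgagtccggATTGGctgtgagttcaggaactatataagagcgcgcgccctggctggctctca
Tap1: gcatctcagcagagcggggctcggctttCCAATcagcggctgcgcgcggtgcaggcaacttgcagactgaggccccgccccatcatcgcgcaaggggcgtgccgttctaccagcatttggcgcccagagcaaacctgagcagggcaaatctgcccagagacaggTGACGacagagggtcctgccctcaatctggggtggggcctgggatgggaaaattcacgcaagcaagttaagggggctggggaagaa

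The H2-K1 and H2-D1 windows aligned over 227 bases, of which 206 (90.7%) were identical. In both, an NF-kB match precedes the interferon regulatory factor core, then TGACG and CCAAT follow. B2m has the same 4 kinds of match, with the interferon regulatory factor core ahead of NF-kB. The Tap1 window overlaps that of Psmb9 by 275 bases on the opposite strand, and both contain the same TGACG and CCAAT and neither the interferon regulatory factor core nor NF-kB. In RefSeq order Psmb9, Tap1, Psmb8 and Tap2 follow each other as neighbouring protein-coding genes.

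The interferon regulatory factor core was present in 3 of the 8 windows (H2-K1, H2-D1 and B2m) and in 23.9% of all 32851 mouse windows. NF-kB was present in the same 3 windows and in 8.46% of all windows. TGACG was found in 5 of 8 (20.8% of all) and CCAAT in 6 of 8 (37.4% of all). The GAS letters were found only in Psmb8 among the 8 (8.3% of all windows). The Psmb10 window held none of the 5 motifs. The letters of some motifs were revised after the windows were seen, so the counts in these genes are not independent of that choice. Which motifs were revised is not given here. The windows are also not separate. Tap1 and Psmb9 hold the same TGACG and CCAAT, and the aligned parts of H2-K1 and H2-D1 are much alike. The counts therefore cannot show whether a motif is more frequent in these genes than in all windows. The matches are letters in a window and were not set against binding data.

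**Figure D1:**
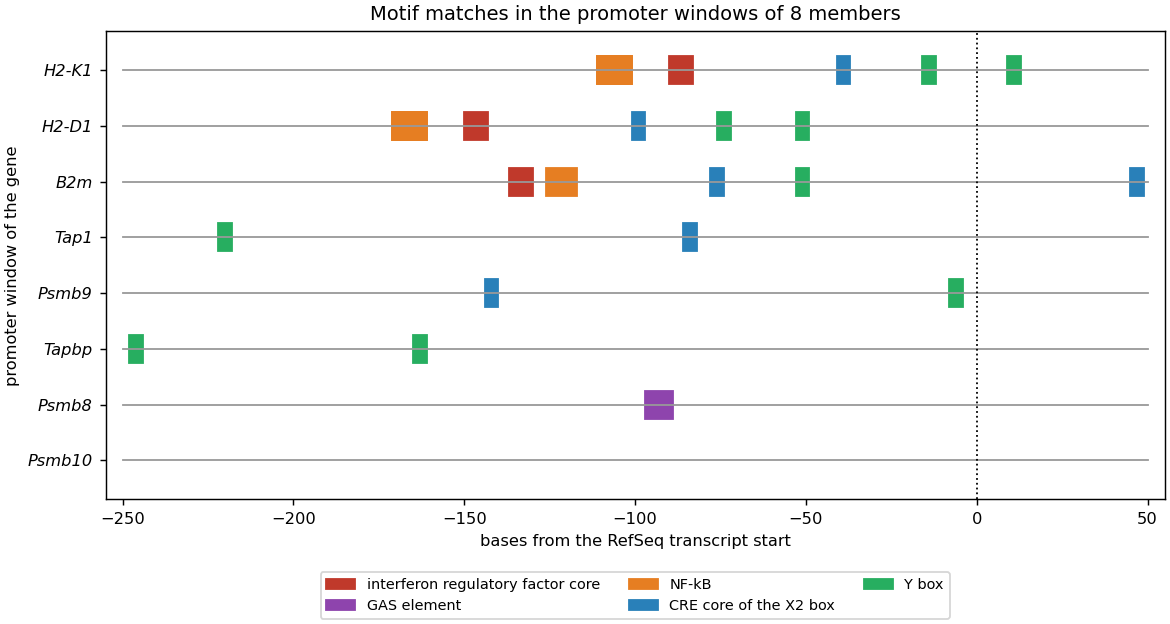
Motif matches (coloured blocks) in the promoter windows of 8 genes, by position in bases from the RefSeq transcript start (dotted line). H2-K1, H2-D1 and B2m each carry NF-kB, interferon regulatory factor, CRE and Y box matches, and Psmb10 carries none.

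The heavy chains and B2m were bright and varied little. H2-K1, a classical heavy chain, stood at 14.91 and 14.81 log2 in WT non-irradiated, 14.66 and 14.64 in WT 2 Gy, 14.76 and 14.82 in CD169-DTR non-irradiated, and 14.70 and 14.63 in CD169-DTR 2 Gy. H2-D1, the second classical heavy chain, stood at 14.70 and 14.59, 14.52 and 14.34, 14.55 and 14.56, and 14.49 and 14.35 in the same order of groups. B2m, the light chain, stood at 18.00 and 18.03, 17.95 and 17.99, 18.08 and 18.13, and 17.99 and 17.87. In all 3 genes both irradiated arrays were below both non-irradiated arrays within each genotype, while the genotypes overlapped at 2 Gy.

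The transporter and tapasin genes varied more. Tap1 stood at 9.19 and 9.02 log2 in WT non-irradiated, 8.98 and 8.88 in WT 2 Gy, 9.38 and 9.19 in CD169-DTR non-irradiated, and 9.49 and 9.21 in CD169-DTR 2 Gy. Tap2 stood at 8.66 and 8.29, 7.78 and 7.87, 8.21 and 8.12, and 8.28 and 7.89. Tapbp stood at 8.70 and 8.53, 8.44 and 8.36, 8.5 and 8.84, and 8.80 and 9.23. For all 3 genes the WT 2 Gy arrays were the lowest of the 8. Tap2 was high in WT non-irradiated, and Tapbp was high in CD169-DTR 2 Gy, with its replicates farther apart than in the other groups.

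Of the immunosubunits, Psmb8 stood at 12.66 and 12.70 log2 in WT non-irradiated, 12.59 and 12.60 in WT 2 Gy, 12.83 and 12.80 in CD169-DTR non-irradiated, and 12.78 and 12.70 in CD169-DTR 2 Gy. Psmb9 stood at 9.64 and 9.64, 9.69 and 9.55, 9.88 and 9.81, and 9.77 and 9.83. Psmb10 stood at 13.93 and 14.11, 13.77 and 13.81, 14.18 and 14.16, and 14.10 and 14.01. All 3 were above WT in CD169-DTR without irradiation, and again at 2 Gy. The probe set shared by Nlrc5 and Mir7072 stood at 6.51 and 6.82, 6.38 and 6.11, 6.37 and 6.99, and 6.57 and 6.50, and both WT 2 Gy arrays were below both WT controls and below both CD169-DTR 2 Gy arrays.

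The within-group SD of the 9 genes, pooled over the groups, had a median of 0.0729 log2 (0.0335 to 0.205), against 0.182 for all 30294 probe sets tested. Tap2 (0.195) and Tapbp (0.205) lay above that median. The median range over the 8 arrays was 0.36 for the 9 genes and 0.59 for all probe sets. All but Tap2 were above the 75th percentile of each array on all 8 arrays, and Tap2 was on 6 of the 8. No level of 1 gene is set against that of another, since probe sets differ in brightness.

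**Figure D2:**
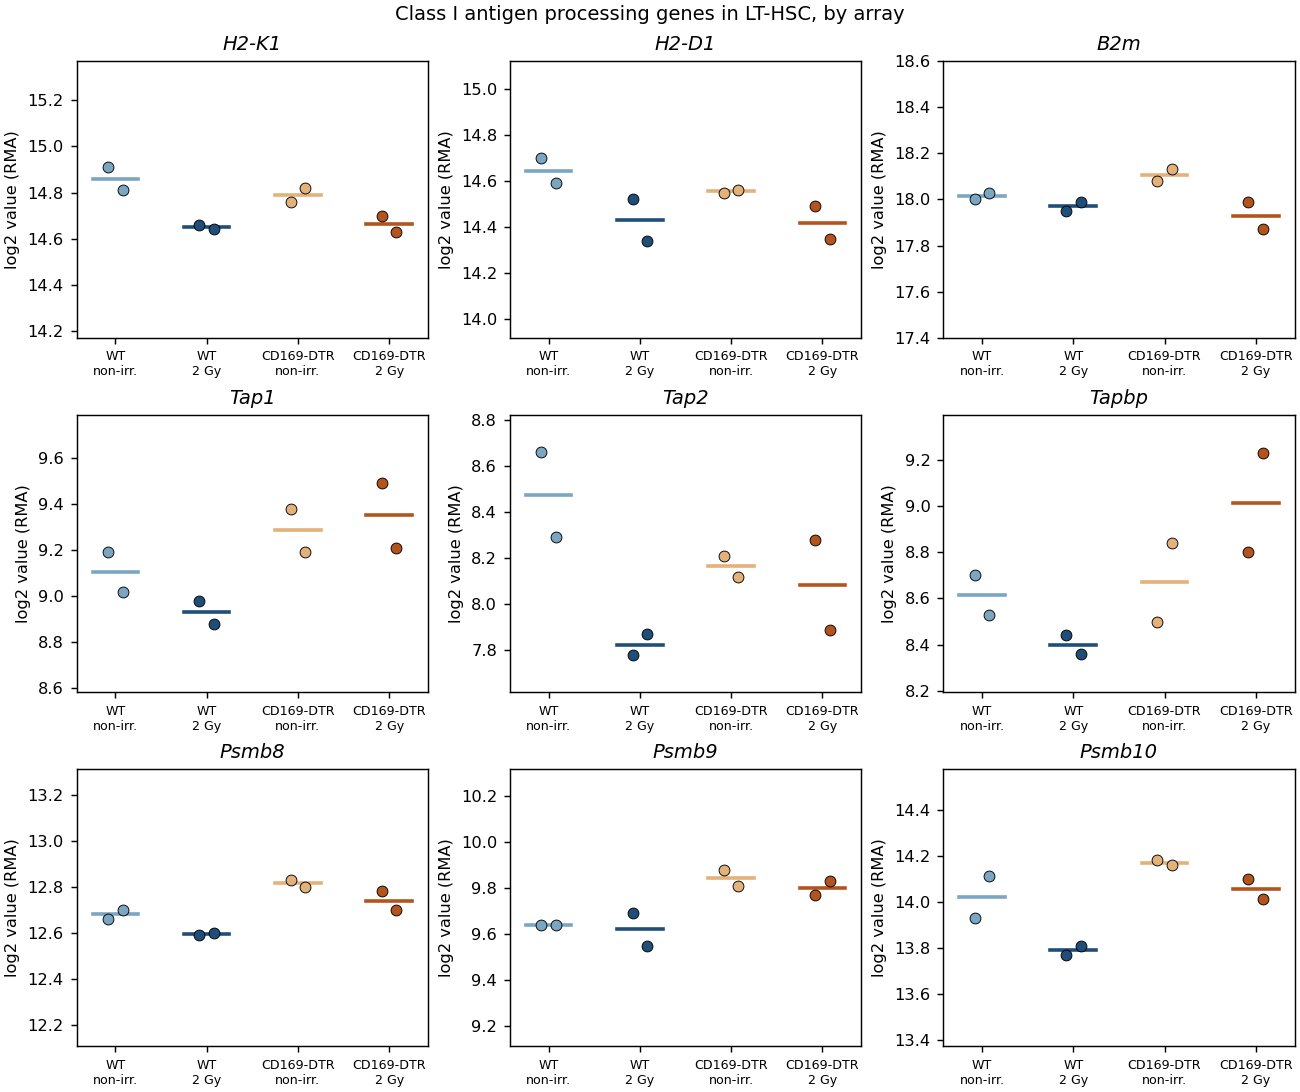
Log2 value (RMA) of each of the 9 genes on the 8 arrays, by group, with points for arrays and bars for group means. The vertical axes differ in position between genes. H2-K1 is lower in both 2 Gy groups, Tap2 is lowest in WT 2 Gy and Tapbp is highest in CD169-DTR 2 Gy.

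Irradiation was first compared within WT mice, the controls for macrophage depletion, to ask what differed in their stem cells at 2 Gy. Differences are in log2 with the standard error (SE) of limma's moderated fit, and a gene passed when its adjusted p (Benjamini-Hochberg over all probe sets) was under 0.05. All 9 genes had a difference below 0, where 35.2% of all probe sets did, and 0 of 9 passed (0.0099% of all probe sets passed). In 8 of 9, all but Psmb9, both irradiated arrays lay below both controls, against 13.2% of all probe sets and 18.8% of those above the 40th percentile of the mean. After cyclic loess, 6 of 9 did (20.1% of all), and after centring each array on its median 9 of 9 did (25.1%). Centring moved every difference in WT by -0.115, because the medians of the WT arrays differ. The median difference was -0.21 for the 9 genes and 0.075 for all probe sets.

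Tap2 differed most in WT, by -0.65 ± 0.184 log2 (SE), which is 1.57-fold lower with a 95% interval of -1.09 to -0.21 log2 and an unadjusted p of 0.0105. Its adjusted p was 0.526, so it did not pass, and 3.21% of all probe sets had an unadjusted p under 0.05 and a lower value. The WT non-irradiated arrays of Tap2 were apart, at 8.66 and 8.29. Over each array left out, its difference ran from -0.835 to -0.465. H2-K1 differed by -0.21 ± 0.110 (adjusted p = 0.666) and H2-D1 by -0.215 ± 0.124 (0.680). Psmb10 differed by -0.23 ± 0.118 (0.666) and Tapbp by -0.215 ± 0.190 (0.751). B2m (-0.045), Psmb8 (-0.085), Psmb9 (-0.02) and Tap1 (-0.175) differed less. The 95% intervals of the 9 genes together ran from -1.09 to 0.25 log2, so a fall of up to 2.13-fold and a rise of up to 1.19-fold were within them. The shared Nlrc5 and Mir7072 probe set differed by -0.42 ± 0.231 (adjusted p = 0.683). In the same comparison all 12 neutrophil and granulocyte-monocyte progenitor markers had a difference above 0 (64.4% of all probe sets did), with a median of 1.735. Of the 10 measured LT-HSC gate and identity genes, 5 had a difference above 0 and 5 below, from 1.435 ± 0.501 for Cd48 to -1.005 ± 0.395 for Flt3. Fgd5 differed by -0.7 ± 0.263, Hlf by -0.64 ± 0.124 and Kit by -0.565 ± 0.108. The part of such cells in the values of the 9 genes was not tested.

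The same comparison in CD169-DTR mice asks what irradiation did where the macrophages had been depleted. Here 7 of 9 genes had a difference below 0 (42.6% of all probe sets), and 0 of 9 passed (0% of all probe sets). The irradiated arrays lay below the controls in 5 of 9 genes, namely B2m, Psmb8, Psmb10, H2-K1 and H2-D1. Of all probe sets 13.4% did, and 16.8% of those above the 40th percentile of the mean. None of the 9 genes had an unadjusted p under 0.05 (3.53% of all probe sets were lower at that level and 3.24% higher). B2m differed by -0.175 ± 0.110 (adjusted p = 0.858), H2-D1 by -0.135 ± 0.124 (0.918) and H2-K1 by -0.125 ± 0.110 (0.910). Tapbp differed by 0.345 ± 0.190 in the other direction (0.821), and Tap2, the most different gene in WT, by -0.08 ± 0.184 (0.971). The median was -0.08 for the 9 genes and 0.035 for all probe sets. All 8 measured erythroid markers had a difference below 0 here, with a median of -0.7525, and their part in the result was not tested.

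The 5 genes that were lower without overlap in CD169-DTR were also lower without overlap in WT. They are both heavy chains, the light chain, Psmb8 and Psmb10, and 3.05% of all probe sets were lower without overlap in both genotypes (4.67% of those above the 40th percentile). The count was 5 after cyclic loess (4.41%) and 6 after median centring (5.33%). On average of both genotypes, H2-K1 differed by -0.1675 ± 0.0776 (adjusted p = 0.560), H2-D1 by -0.175 ± 0.0880 (0.583), Psmb10 by -0.1725 ± 0.0832 (0.572), B2m by -0.11 (0.663) and Psmb8 by -0.08 (0.724). The average difference of Tap2 was -0.365 ± 0.130 (unadjusted p = 0.0279, adjusted p = 0.501), and 3.98% of all probe sets had such a p and a lower value. None of the 9 passed on average, where 0.0099% of all probe sets did.

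The genotypes were compared without irradiation and at 2 Gy, which asks whether the depleted mice differed from WT in each case. Without irradiation, B2m, Psmb8, Psmb9 and Psmb10 were higher in both CD169-DTR arrays than in both WT arrays (19.1% of all probe sets were), and Tap2 and H2-D1 were lower (11.9% of all). The differences of the immunosubunits were 0.205 ± 0.113 for Psmb9, 0.15 ± 0.118 for Psmb10 and 0.135 ± 0.106 for Psmb8. Tap2 differed by -0.31 ± 0.184. None of the 9 passed (0% of all probe sets), the adjusted p was 0.999 for each, and none had an unadjusted p under 0.05 (2.49% of all probe sets were higher and 1.89% lower at that level). All 12 neutrophil and granulocyte-monocyte progenitor markers had a difference above 0 here (57.3% of all probe sets did), with a median of 0.74. Their part in the values was not tested.

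At 2 Gy, 6 of 9 genes were higher in both CD169-DTR arrays than in both WT arrays, namely Tap1, Tap2, Tapbp and the 3 immunosubunits. Of all probe sets 16% were, and 19.6% of those above the 40th percentile of the mean. After cyclic loess 5 were (18.2% of all) and B2m was lower, and after median centring 7 were (24.2%). Tapbp differed by 0.615 ± 0.190 (1.53-fold, 95% interval 1.12 to 2.10, unadjusted p = 0.0156, adjusted p = 0.636). Tap1 differed by 0.42 ± 0.149 (1.34-fold, 1.04 to 1.71, unadjusted p = 0.0277, adjusted p = 0.648). These 2 were the genes of the 9 with an unadjusted p under 0.05, and 3.86% of all probe sets were higher at that level. Psmb10 (0.265 ± 0.118), Tap2 (0.26 ± 0.184), Psmb9 (0.18) and Psmb8 (0.145) followed, while H2-K1 (0.015), H2-D1 (-0.01) and B2m (-0.04) were near 0. None of the 9 passed (0% of all probe sets). Of the neutrophil and granulocyte-monocyte progenitor markers, 10 of 12 had a difference below 0 (53.5% of all probe sets did), with a median of -0.7525. This comparison uses the same 2 Gy arrays as the irradiation comparisons, so that their values are not independent.

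**Figure D3:**
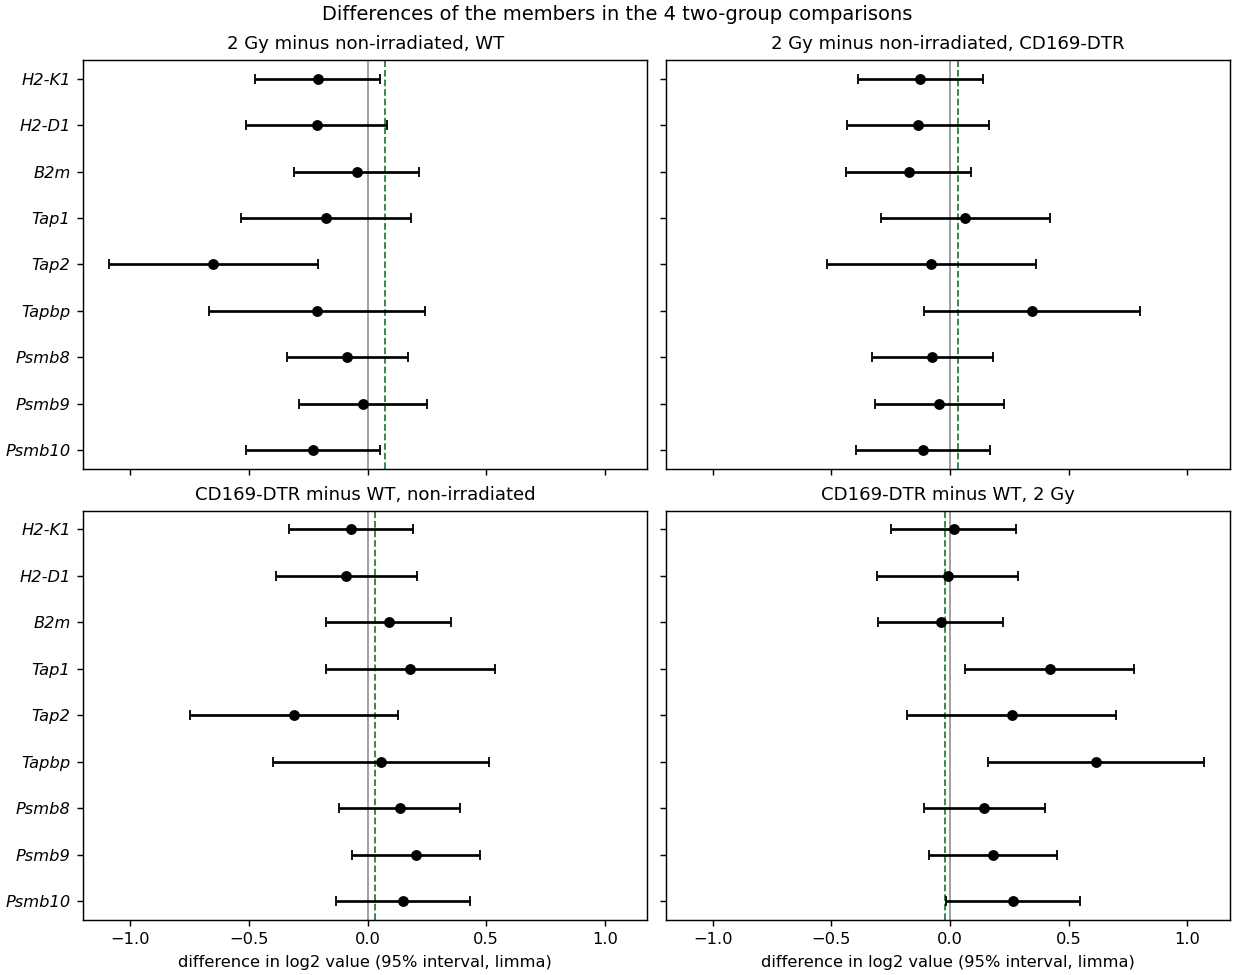
Difference in log2 value of the 9 genes in 4 comparisons, with points for the estimate and whiskers for the 95% interval of limma. The dashed line is the median of all probe sets tested. All 9 points lie below 0 for irradiation in WT, and the Tapbp and Tap1 intervals at 2 Gy lie above 0 before adjustment.

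Psmb8, Psmb9 and Psmb10 were higher in CD169-DTR without overlap at both doses. Of all probe sets, 3.43% were (4.31% of those above the 40th percentile). The count was 1 (Psmb8) after cyclic loess (3.44%) and 4 after median centring (4.15%). Averaged over both doses, Psmb10 differed by 0.2075 ± 0.0832 (unadjusted p = 0.0434), Psmb9 by 0.1925 ± 0.0798 (0.0489) and Psmb8 by 0.14 ± 0.0752 (0.107). Tap1 differed by 0.30 ± 0.106 (0.0266) and Tapbp by 0.335 ± 0.134 (0.0435). Thus 4 of 9 had an unadjusted p under 0.05 and a higher value, where 3.75% of all probe sets did, and 0 of 9 passed (adjusted p = 0.780 at the lowest; 0% of all probe sets). The count of 4 was 1 with an intensity trend in the variance, with a filter on dim probe sets, after cyclic loess and with the replicate number as a block. With 1 array left out it was 0 without WT 2 Gy replicate 2, 2 without WT 2 Gy replicate 1 and 1 without any of the other 6. The heavy chains and B2m differed by -0.05 to 0.025.

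The interaction asks whether irradiation differed between the genotypes. It was 0.57 ± 0.260 for Tap2 (unadjusted p = 0.0668, adjusted p = 0.933) and 0.56 ± 0.269 for Tapbp (0.0782 and 0.944), where a positive value means that the difference was more positive in CD169-DTR. The other 7 genes had interactions between -0.13 and 0.24. None of the 9 had an unadjusted p under 0.05 (2.4% of all probe sets were higher and 2.78% lower), and none passed (0% of all probe sets). The upper 95% bounds ran from 1.18-fold for B2m to 2.30-fold for Tapbp. All 12 neutrophil and granulocyte-monocyte progenitor markers had an interaction below 0 (57.8% of all probe sets did), with a median of -1.5675.

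The genes were also averaged by role. Taking the mean of 3 genes relative to each gene's mean over the arrays, the heavy chains with B2m stood at 0.117 and 0.0571 in WT non-irradiated, -0.0429 and -0.0963 in WT 2 Gy, 0.0438 and 0.0838 in CD169-DTR non-irradiated and -0.0263 and -0.136 in CD169-DTR 2 Gy. The immunosubunits stood at -0.0708 and 0.0025, -0.131 and -0.161, 0.149 and 0.109, and 0.0692 and 0.0325. The transporter and tapasin stood at 0.19 and -0.0467, -0.26 and -0.29, 0.0367 and 0.0567, and 0.197 and 0.117. The means of the heavy chains with B2m and of the immunosubunits were both lower at 2 Gy in each genotype, without overlap. Psmb9 by itself overlapped in both genotypes (-0.02 in WT and -0.045 in CD169-DTR). How often means of 3 other genes do not overlap was not computed. The immunosubunits were also higher in CD169-DTR at each dose, and the transporter and tapasin were lowest in WT 2 Gy. Differences between the role groups were not tested.

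**Figure D4:**
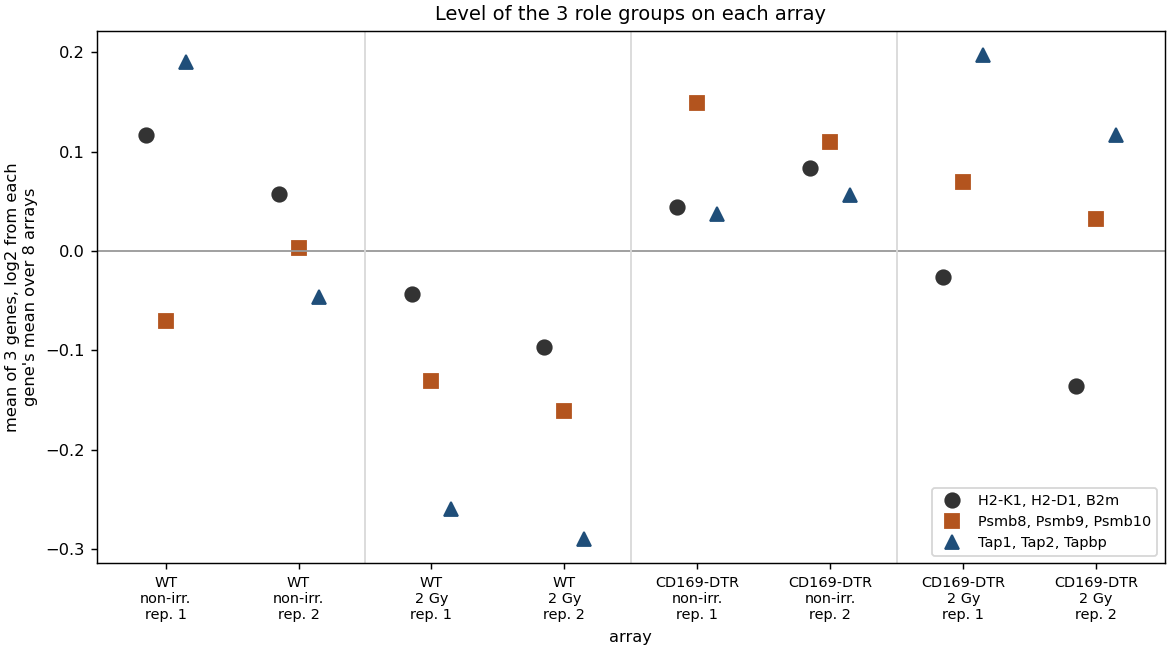
Mean of 3 genes per role group on each of the 8 arrays, in log2 relative to each gene's mean over the arrays. The transporter and tapasin triangles are lowest in both WT 2 Gy arrays (-0.26 and -0.29), and the immunosubunit squares are above 0 on all 4 CD169-DTR arrays.

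Across the 8 arrays, which share normalisation and group differences, Psmb8 and Psmb10 had a Pearson r of 0.949 and H2-K1 and H2-D1 one of 0.912. Tap2 was most like H2-K1 (0.869), and Tap1 most like Psmb8 (0.811). The closest gene was less alike for B2m (H2-K1, 0.608) and Tapbp (Psmb9, 0.553). Pairs ran down to -0.355 for B2m and Tapbp. The tested genes outside all lists whose pattern was most like the mean of the 9 were Dnajb1 (0.974), Ociad1 (0.969), Foxe3 (0.961), Gm15209 (0.947) and Mov10 (0.942). These values describe 8 arrays and the most similar of many genes.

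Constitutive catalytic subunits were compared as partners of the immunosubunits. Psmb6, the partner of Psmb9, differed by 0.015 ± 0.0864 on average of both genotypes, and Psmb7, the partner of Psmb10, by -0.235 ± 0.127, and neither passed. Among the 6 of 8 measured genes of proteasome activators and constitutive subunits, 0 passed in any comparison. The proteasome activator Psme4 stood at 8.58 and 8.96 in WT non-irradiated, 9.42 and 9.16 in WT 2 Gy, 8.60 and 8.81 in CD169-DTR non-irradiated, and 9.09 and 8.72 in CD169-DTR 2 Gy. It differed by 0.36 ± 0.142 on average of both genotypes (adjusted p = 0.529). Psme1, a subunit of the interferon-inducible PA28 activator, differed by 0.11 ± 0.0738 (0.652).

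Other genes of the pathway were read from lists of names. Of 23 other heavy chain genes, 14 were measured and 0 passed in any comparison. The non-classical heavy chain H2-M3 differed by -0.605 ± 0.232 (unadjusted p = 0.0371) and H2-T24 by -0.33 ± 0.131 (0.0419) on average of both genotypes, with overlapping arrays. H2-Q4 differed by -0.185 ± 0.0824 (0.062), with no overlap. Among the 10 peptide loading genes, of which all 10 were measured and 0 passed, the translocon subunit Sec61a1 differed by -0.255 ± 0.0745 (0.0122) and the chaperone Hspa5 by -0.3475 ± 0.145 (0.05). The chaperone Calr (calreticulin) differed by 0.0225 ± 0.0836 (0.796). Erap1, which trims peptides in the endoplasmic reticulum, differed by 0.1375 ± 0.119 (0.287). Of 7 peptide trimming enzymes, 5 were measured and 0 passed, and Blmh differed by 0.1925 ± 0.0778 (0.0447). Apart from Calr and Erap1, these genes are named for a small p in their lists. The lowest adjusted p on average of both genotypes was 0.517 for the heavy chain list, 0.437 for loading and 0.536 for trimming. Of all probe sets, 3.98% were lower and 5.24% higher with an unadjusted p under 0.05 in that comparison.

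Of 17 listed regulators of class I transcription, 16 were measured and 0 passed. The Y box factor subunits differed in direction on average of both genotypes, Nfyb by 0.385 ± 0.125 (unadjusted p = 0.0192) and Nfya by -0.2975 ± 0.120 (0.0449), while Nfyc differed by -0.2475 ± 0.113 (0.0679). The X box factor Rfx5 differed by -0.44 ± 0.182 (0.0486). The lowest adjusted p of the list was 0.471 in that comparison. Of all probe sets, 3.98% were lower and 5.24% higher there with an unadjusted p under 0.05. Irf1, an interferon-induced activator of class I genes, stood at 6.42 and 6.52 in WT non-irradiated, 6.73 and 6.68 in WT 2 Gy, 7.45 and 6.65 in CD169-DTR non-irradiated, and 6.51 and 6.49 in CD169-DTR 2 Gy. The array CD169-DTR non-irradiated replicate 1 stood above all the others. Of 16 interferon receptor and signalling genes, 15 were measured and 0 passed. For irradiation on average of both genotypes, 0 of the 15 had an unadjusted p under 0.05. Within WT 1 did, Jak1 (-0.345 ± 0.125, unadjusted p = 0.0295, adjusted p = 0.589), and within CD169-DTR 0 did. Averaged over both doses, the genotypes differed by 0.4325 ± 0.135 in Ifngr2, a chain of the interferon-gamma receptor (unadjusted p = 0.0161, adjusted p = 0.759). Usp18, an interferon-induced inhibitor of type I interferon signalling, differed by 0.655 ± 0.228 (0.0256 and 0.780). The kinase Jak1 differed by -0.315 ± 0.0881 (0.01 and 0.724). They are the genes of this list with an unadjusted p under 0.05 for genotype on average, 2 higher and 1 lower. Of all probe sets, 3.75% were higher and 2.58% lower at that level. In all, 13 of the 15 had a difference below 0 (48.6% of all probe sets did). Ifng itself was below the median on every array.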

How the data were processed

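The deposited table holds 1 log2 value per probe set and array, made by the authors with RMA per the submitters' processing notes. The log base is taken from the convention of RMA, and build and annotation are not given in the sources used here. Values were used as deposited.

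Of 40161 probe sets, the 30294 with 1 gene symbol in the platform annotation were tested, 2145 with several symbols and 7722 with none were not. Entrez identifiers matched 22546 of them to RefSeq (GRCm38.p6), which updated 827 symbols. The 4 group means were fitted in 1 model with limma 3.58.1 (lmFit, eBayes) in R 4.3.3, with 4 residual and 2.59 prior degrees of freedom. The prior draws each SE toward the spread of all probe sets, so that genes of small spread get a larger SE. Psmb8, with a pooled within-group SD of 0.0335, had an SE of 0.106 for irradiation in WT. Tests were two-sided, and p-values were adjusted by Benjamini-Hochberg within each of 7 comparisons. The number of arrays limits the precision. The fit was also run on simulated data. The outcome is not given here, so that run does not show whether differences as small as these could be detected.

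The genes, lists and tests were chosen with earlier results of these data known, and the letters of 2 motifs were revised after the windows were seen. Named genes are the listed genes and, of each pathway list, up to 3 with the smallest p for average irradiation and up to 2 with the smallest interaction p, of which a choice is given. Irf1, Psmb6, Psmb7, Psme1, Calr, Erap1, Kit, Siglec1 and Cdkn1a were in the rule by name, and Cdkn1a, which is no class I gene, is left out. Psmb5, Psme2 and H2-T23, also in the rule, had no tested probe set and are not analysed here. Usp18 is named outside the rule, and Ifngr2, Usp18 and Jak1 are given for genotype, which the rule did not use. H2-K1's first RefSeq window was used.

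The alternatives were an intensity trend, dropping probe sets whose mean was under the 40th percentile, testing probe sets without a symbol too, cyclic loess, median centring, array weights (statmod 1.5.0), fitting only the groups compared, a block for the replicate number, the mean of a gene's probe sets, and each array left out.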

Additional observations from a re-analysis of the deposited data

How the results depend on the processing

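None of the 9 genes passed the adjusted p under any alternative, leaving out arrays included. The lowest adjusted p of a gene over all settings was 0.267 (CD169-DTR against WT at 2 Gy) and the highest of these lows 0.880 (non-irradiated). The replicate numbers were not shown to pair arrays: replicate differences correlated between -0.0877 and 0.159 across groups. With the number as a block, the probe sets that passed for irradiation in WT were 1 in place of 3, and 1 gene in place of 4 had an unadjusted p under 0.05 for genotype on average. The block changed no call of the 9 genes.

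In WT, the median irradiation difference was -0.17 after cyclic loess and -0.325 after centring. Genes with an unadjusted p under 0.05 were 2 with the intensity trend and 4 after centring, and 1 probe set passed after loess and 0 with only the groups compared. In CD169-DTR, 1 gene had such a p with the trend, and the probe sets that passed were 2 with the trend, all probe sets or loess, 1 with the dim filter or only the groups compared, and 4 without both far arrays (WT 2 Gy replicate 1 and CD169-DTR 2 Gy replicate 2, which lie farthest from the rest, an alternative added after seeing the data, as were the counts of unadjusted p and the shared probe set). On average, the genes with such a p were 5 (trend), 3 (loess), 4 (centring) and 0 (without both far arrays), 1 probe set passed with the trend, and the median was -0.148 after loess and -0.1775 after centring.

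For genotype without irradiation, 1 probe set passed with the trend, and the median was 0.0423 after loess. At 2 Gy the median was 0.108 (loess), 0.25 (centring) and 0.22 (without both far arrays), the genes with an unadjusted p under 0.05 were 1 (loess), 4 (centring), 1 (only the groups compared) and 1 (without both far arrays), and 1 probe set passed with all probe sets and 2 without both far arrays. On average of doses the median was 0.0844 after loess, and the count was 1 with the trend, the dim filter, loess and without both far arrays. The interaction's median was 0.18 after centring and 0.14 without both far arrays, with 1 gene under 0.05 and 1 probe set that passed, respectively.

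Signs turned after loess for Psmb9 in irradiated WT (0.0261), H2-K1 at 2 Gy (-0.0315), Psmb8's interaction (-0.0107) and B2m by genotype on average (-0.0112). After centring they turned for B2m (0.03) and H2-D1 (0.06) at 2 Gy, Psmb9's interaction (0.07) and Tapbp on average of genotypes (-0.0025). Without both far arrays they turned for Tap2 in irradiated CD169-DTR (0.115), H2-D1 at 2 Gy (0.15), Psmb9's interaction (0.015), Tapbp on average of genotypes (-0.0625), and Tap2 (0.05) and H2-D1 (0.03) by genotype on average. The cause was not tested.

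Over each array left out, the 9 genes' median ran from -0.26 to -0.125 for irradiation in WT, -0.16 to -0.06 in CD169-DTR and -0.14 to -0.08 on average. It ran from 0.065 to 0.115 for genotype without irradiation, 0.105 to 0.215 at 2 Gy, 0.12 to 0.16 on average and 0.035 to 0.15 for the interaction. Genes with an unadjusted p under 0.05 were 0 to 1 for irradiation in WT, in CD169-DTR, on average and for the interaction, 0 for genotype without irradiation and 0 to 2 at 2 Gy and on average. Probe sets that passed were 0 to 16 for irradiation in WT, 0 to 5 in CD169-DTR and 1 to 12 on average, and 0 to 6, 0 to 11, 0 to 4 and 0 to 7 for genotype without irradiation, at 2 Gy, on average and for the interaction. Signs turned for irradiation of Psmb9 in WT (-0.09 to 0.05), Tap1 (-0.075 to 0.205) and Tap2 (-0.275 to 0.115) in CD169-DTR, and Tap1 (-0.125 to 0.015), Tapbp (-0.0425 to 0.1725) and Psmb9 (-0.0675 to 0.0025) on average. For genotype they turned for Tapbp without irradiation (-0.115 to 0.225), B2m (-0.1 to 0.02), H2-K1 (-0.02 to 0.05) and H2-D1 (-0.1 to 0.08) at 2 Gy, and B2m (-0.005 to 0.055) and Tap2 (-0.1225 to 0.0725) on average. Interactions that turned were Psmb8 (-0.03 to 0.05), Psmb9 (-0.095 to 0.045) and H2-D1 (-0.01 to 0.17). The partner of a left-out array was assumed to vary like the other groups.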
